A study of Mus musculus with 6 samples.

Results

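Among the cells cultured from mouse RPE and choroid, 308 of 25428 cells (1.21%) carried the name Pericyte in the annotation deposited with the counts, and these 308 cells are described here. All cells with that name were taken, with no further selection, and they came from all 6 samples. Of the samples 3 were Dram2 wt/wt and the other 3 were Dram2 ko/ko, all from male C57BL/6J mice of 12 to 16 months, and the ko/ko mice lacked exon 4 of Dram2 (DNA damage regulated autophagy modulator 2, a lysosomal membrane protein) constitutively, in every cell. RNA was counted by unique molecular identifiers (UMIs) with a droplet method that reads the 3′ ends of polyadenylated RNA. Dram2 ko/ko replicate 3 was the only sample of batch 2, and the other 5 samples formed batch 1.

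The annotation gave 74, 38 and 32 of these cells in the wt/wt replicates 1, 2 and 3, and 17, 124 and 23 in the ko/ko replicates 1, 2 and 3. A cell held a median of 13598 UMIs, with a range from 3780 to 63469, and the medians of single samples ran from 10505 UMIs in ko/ko replicate 2 to 23133 in ko/ko replicate 1. Summed over these cells, a sample had between 440539 and 1517959 UMIs. Only 1 of the 308 cells had under 500 genes or over 20% mitochondrial counts.

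The markers of these cells were those of Schwann cells, not of pericytes. Schwann cells are the glia of peripheral nerves. They descend from the neural crest, depend on the transcription factor SOX10, and either wrap single axons in myelin or hold several small axons without it. After loss of axon contact they leave the myelinating program, divide and secrete trophic factors, which is known as the repair state. The choroid is richly innervated by ciliary and autonomic nerves, whereas pericytes are contractile cells on the outside of capillaries.

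All 16 genes of a Schwann identity list had their highest level among the 8 annotated types in these cells, and 11 of the 16 were at least 5-fold above every other type. Levels are in CPM, the UMIs of a gene in 1000000 UMIs of the sum over the cells of a type in a sample. Since the types were made by clustering the same counts, these comparisons between types are descriptions and were not tested. Sox10, the transcription factor that specifies peripheral glia, had 219, 158 and 206 CPM in wt/wt replicates 1 to 3 and 154, 129 and 206 CPM in ko/ko replicates 1 to 3, against 3.11 CPM in RPE cells, the next type. Every sample was thus far above the next type, and the genotypes overlapped. Ngfr, the low-affinity neurotrophin receptor p75, had 433, 439 and 376 CPM in wt/wt and 377, 287 and 528 CPM in ko/ko, with at most 0.636 CPM in another type. Cdh19, a cadherin of Schwann cell precursors, had 125, 129 and 131 CPM in wt/wt and 38.6, 77.1 and 114 CPM in ko/ko, with at most 0.796 CPM elsewhere. Gfra3, the co-receptor for artemin, was the least even of these markers. It had 114, 44.2 and 47.9 CPM in wt/wt and 2.27, 77.1 and 165 CPM in ko/ko, and at most 0.0805 CPM elsewhere.

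Further members of the list were also highest here. Foxd3, a transcription factor of the neural crest, was at 268 ± 47.8 CPM (SD, n = 6 samples) and Sox2, a factor of immature Schwann cells, at 240 ± 63.03 CPM, with at most 0.464 and 0.516 CPM in another type. Erbb3, the neuregulin receptor of the Schwann lineage, was at 58.5 ± 19.8 CPM and the calcium-binding protein gene S100b at 50.6 ± 26.6 CPM, against 5.71 CPM in Fibroblast 2 cells. The list also held genes shared with other types: Ednrb, the endothelin B receptor, had 13.5 ± 6.77 CPM here and 13.2 CPM in Endothelial cells, and Cmtm5 reached only 2.75 ± 2.92 CPM.

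Per cell, 280 of the 308 cells (90.9%) had a UMI of at least 3 of 10 Schwann markers, which included Sox10, Ngfr, Cdh19, Gfra3, Erbb3, S100b, Foxd3 and Ednrb. Among cells of the other names only a few did, namely 2 with the name RPE, 3 Fibroblast, 3 Fibroblast 2 and 5 Fibroblast proliferating, and 0 of 288 Endothelial and 0 of 84 Myeloid cells did. At a depth thinned to 8000 UMIs per cell, Sox10 was found in 74.5% of these cells, in 0% of Endothelial and in 0.0943% of Fibroblast cells, and Ngfr in 87.5%, 0% and 0.171%. Without thinning the shares in these cells were 82.8% for Sox10 and 93.8% for Ngfr. Of the other names, RPE had the most cells with a Sox10 UMI without thinning, 55 of 1492. Fibroblast had 17 of 12651. Median depths before thinning were 13598 UMIs here, 9262.5 in Endothelial and 26108 in Fibroblast cells. Thinning left out 53 of the 308 cells, those below 8000 UMIs. The 28 cells with under 3 markers were shallower (median 7882.5 UMIs) and, summed, still had 213 CPM of Ngfr and 37.4 CPM of Sox10. Of 3 fibroblast genes, Mgp was higher in them than in the other 280 cells, at 700 against 291 CPM. Dcn, at 29.9 against 70.1 CPM, and Col1a2, at 2896 against 3578 CPM, were lower in them. These levels are pooled over samples. The share of cells with at least 3 markers was 95.9%, 89.5% and 100% in wt/wt replicates 1 to 3. In ko/ko replicates 1 to 3 it was 88.2%, 84.7% and 100%. The contrast therefore cannot be told apart from differences between samples.

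Pericyte genes did not follow the name. Of 15 genes on the pericyte list, 5 had no UMI in the 308 cells: the potassium channel gene Kcnj8, Higd1b, Ndufa4l2, Vtn and Steap4. A count of 0 allows up to 0.974% of the cells with a UMI, or 0.562 CPM over all of them, counting error only. Abcc9, the partner subunit of the Kcnj8 channel, had 1 UMI. Rgs5, a regulator of G-protein signalling that marks pericytes, was at 7.79 ± 10.8 CPM, below the 67.1 CPM of Fibroblast cells, and Pdgfrb, the receptor through which endothelium recruits pericytes, was at 29.4 ± 7.87 CPM, below the 93.6 CPM of Fibroblast 2 cells. Only 2 members of the list were highest in these cells. Cspg4, which encodes the NG2 proteoglycan of both pericytes and immature glia, had 239, 171 and 184 CPM in wt/wt and 204, 221 and 173 CPM in ko/ko, against 48.5 CPM in Fibroblast proliferating cells. Mcam (CD146), an adhesion molecule of vessel walls that is also found on Schwann cells, was at 294 ± 45.7 CPM, against 181 CPM in Endothelial cells. In all, 5 of the 15 genes were at 10 CPM or more. The cells are called Schwann-like below.

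**Figure D1:**
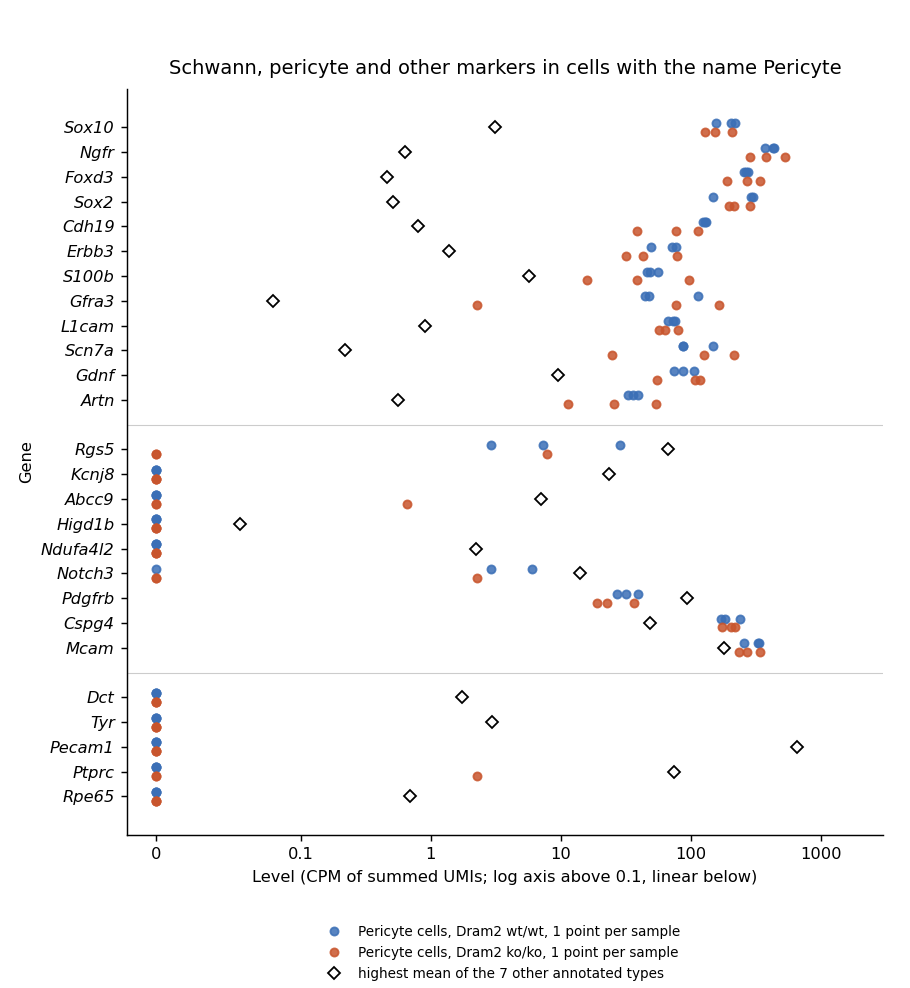
Levels of Schwann markers (top block), pericyte markers (middle) and markers of melanocytes, endothelium, leukocytes and RPE (bottom) in the cells with the name Pericyte. Each point is 1 sample, in CPM on an axis that is logarithmic above 0.1, and the diamond is the highest mean among the 7 other annotated types. For Schwann genes the points of both genotypes lie right of the diamond, and for most pericyte genes left of it, Cspg4 and Mcam apart.

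Most defining markers of other cell types were absent or low, with exceptions in several lists. The endothelial gene Pecam1 and the macrophage genes C1qa and Aif1 had no UMI, and the common leukocyte gene Ptprc had 1. The endothelial sialomucin gene Emcn was at 52.3 ± 36.0 CPM, with a UMI in 21.1% of the cells, against 4366 CPM in Endothelial cells. Melanocytes also arise from the neural crest and use SOX10, but their pigment enzymes Dct, Tyr and Tyrp1 and the melanosome gene Mlana had no UMI here. Slc24a5, an ion exchanger of melanosomes, was at 55.8 ± 13.1 CPM in 53.9% of the cells, below the 205 CPM of RPE cells. Of the RPE list 7 of 12 genes had none, Rpe65, Otx2 and Lrat among them, and Serpinf1, a secreted factor of RPE and fibroblasts, was at 121 ± 69.6 CPM, where Fibroblast proliferating cells had 348 CPM. The neuronal genes Rbfox3, Snap25 and Syt1 had none either, while Tubb3, a neuronal tubulin, was at 377 ± 141 CPM and 79.6 CPM in the next type. Map2, a microtubule protein of neurons, was also highest here, at 32.9 ± 8.62 CPM against 8.07 CPM in RPE cells, and Stmn2 was at 102 ± 70.7 CPM, below the 638 CPM of Fibroblast-like cells. None of the 8 smooth muscle genes was highest here, and Acta2, smooth muscle actin, was at 1732 ± 964 CPM against 14008 CPM in Fibroblast-like cells.

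Of the 10 fibroblast genes, both type I collagen genes and Postn were highest in these cells. Col1a2, a chain of type I collagen, had 3849, 3359, 4796, 4547, 2754 and 2788 CPM in wt/wt replicates 1 to 3 and ko/ko replicates 1 to 3, against at most 702 CPM in another type, and Col1a1 was at 1729 ± 256 CPM against at most 704 CPM. Postn (periostin, a secreted matrix protein) was at 882 ± 339 CPM and no higher than 23.3 CPM elsewhere. The other members were below fibroblasts: Col3a1, the type III collagen gene, at 110 ± 87.4 CPM against 241 CPM in Fibroblast cells, Dcn (decorin) at 51.8 ± 55.5 CPM against 2536 CPM in Fibroblast 2 cells, Mgp (matrix Gla protein) at 271 ± 231 CPM, where Fibroblast proliferating cells had 3562 CPM, and Lum, Pdgfra, Fbln1 and Thy1 with means below 7 CPM each. Mgp and Dcn were uneven, from 52.2 to 634 CPM and from 2.06 to 136 CPM, with wt/wt replicate 2 and ko/ko replicate 2 highest for both. The part of fibroblast RNA or of doublets in these levels was not tested.

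The 25 genes that stood furthest above every other type included Ngfr, Foxd3 and Sox2. Among 3861 genes with at least 50 CPM in these cells, 1029 had their highest level here and 50 were about 8-fold or more above the next type (log2 ratio of at least 3, with 1 CPM added). The leading genes came both from the lists and from outside them. Insc, an adaptor of spindle orientation, had 138 ± 31.1 CPM and a UMI in 76.9% of the cells. Gldn (gliomedin, which clusters sodium channels at nodes of Ranvier) had 242 ± 199 CPM, and Pmp2, a fatty acid binding protein of peripheral myelin, 63.5 ± 33.1 CPM. The Pmp2 reads are uncertain, since 99.7% of its 3′ sequence also lies in transcripts of other genes and the overlapping gene Gm37389, itself among the 25, had 61.7 CPM. The lincRNA Gm12688, which lies next to Foxd3 on chromosome 4, had 83.9 ± 18.9 CPM and the unconfirmed transcript Gm36944, inside Cdh19 on the same strand, 52.3 ± 19.0 CPM. Tfap2a, a neural crest factor, had 83.1 ± 23.6 CPM and the axon-glia adhesion gene L1cam 69.5 ± 8.56 CPM.

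The genes whose level followed Sox10 most closely over 48 sums (8 types in 6 samples) were Cfap299 (Pearson r 0.988), Fgf5 (0.977), Cdh19 (0.976), Frmpd1 (0.975) and Gldn (0.971), followed by Sox6, Sema4f and Sox2. These coefficients describe log2(CPM + 1) values that share libraries and mostly contrast 1 type with 7.

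The receptors and ligands of the glial growth pathways were unequally present. Neuregulin 1 on axons signals through ERBB2 and ERBB3 in Schwann cells, and GDNF ligands signal through a GFRA co-receptor with RET or NCAM1. Erbb2 was at 17.7 ± 6.58 CPM beside Erbb3, and Erbb4, Nrg2, Nrg3 and Nrg4 had no UMI. Nrg1 had 2.93, 2.39 and 10.2 CPM in wt/wt and 22.7, 4.61 and 0 CPM in ko/ko. Of the co-receptors, Gfra1 was at 89.2 ± 45.7 CPM and Gfra2, which binds neurturin, at 51.9 ± 5.28 CPM, each at most 1.41 CPM in another type. The ligand genes Gdnf, at 91.2 ± 23.9 CPM, and Artn, the ligand of GFRA3, at 33.2 ± 14.1 CPM, were made in the same cells and were at most 9.61 and 0.562 CPM elsewhere. Ret itself had no UMI in any of the 308 cells, while Ncam1 was at 209 ± 61.6 CPM, below the 249 CPM of RPE cells. Of the neurotrophin genes, Bdnf was lower here than in fibroblast types, at 61.5 ± 30.7 CPM against 471 CPM in Fibroblast cells.

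Some genes of the immature and repair states were high. Of 18 genes on the precursor and immature list, 13 were highest in these cells, and of 20 on the repair list, 12 were. These counts are not independent of the Schwann identity list. Sox10, Ngfr, Cdh19, Foxd3, Sox2, Fabp7, Ednrb and Dhh were counted on both the identity and the immature list. Ngfr and Sox2 were counted on the repair list as well. The 12 repair genes also included Shh and Olig1, which were near 0. Jun, the factor that drives the repair program, had 623, 492 and 451 CPM in wt/wt and 536, 540 and 479 CPM in ko/ko. These values lay around the 522 CPM of Endothelial cells and above the 230 CPM of Fibroblast cells, so that Jun did not set the cells apart. Btc (betacellulin) at 68.5 ± 30.7 CPM and Megf10, a receptor for engulfing debris, at 71.9 ± 22.4 CPM were at most 16.0 and 9.43 CPM elsewhere. Shh and Olig1, which denervated Schwann cells are known to switch on, had 3 UMIs and 1 UMI, each in a single cell, and Gfap, a filament of non-myelinating and repair glia, was at 7.92 ± 5.01 CPM. Scn7a, a sodium channel of non-myelinating Schwann cells, was at 115 ± 64.7 CPM and at most 0.220 CPM in another type.

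The late myelin genes were at or near 0. Mag, the adhesion protein facing the axon, had 9 UMIs, Prx (periaxin) had 13, and Pllp, Fa2h and Drp2 had 1 UMI each. Pmp22 and Cnp, which are myelin genes with wider expression, were at 425 ± 63.3 and 147 ± 35.6 CPM. Of 20 genes on a glial adhesion and basement membrane list, 11 were highest in these cells. They included the laminin receptor genes Itga6, Itgb4, Itga7 and Dag1, at 119 ± 17.7, 84.8 ± 23.2, 83.3 ± 26.4 and 424 ± 93.05 CPM. Itga6 was close to the 111 CPM of Endothelial cells. The laminin genes Lama2 and Lamc1 were also highest here, at 42.6 ± 8.44 and 131 ± 22.6 CPM. Other basement membrane genes were higher in Endothelial cells: Col4a1 (738 here against 2168 CPM), Col4a2 (390 against 1189), Nid1 (328 against 421) and Hspg2 (370 against 455).

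Of the genes of axon contact and early myelination, Egr2, the transcription factor that turns on myelin genes, had 8.07, 15.5 and 4.35 CPM in wt/wt and 45.4, 7.91 and 6.19 CPM in ko/ko, and a UMI in 42 of the 308 cells (13.6%). Fibroblast 2 cells had 6.96 CPM of Egr2, above wt/wt replicate 3 and ko/ko replicate 3. Gldn had 213, 195 and 234 CPM in wt/wt and 629, 73.1 and 111 CPM in ko/ko. For both genes ko/ko replicate 1 was the highest sample and the genotypes overlapped. Gfra3 was lowest in the same sample: a Gfra3 UMI was found in 27, 9 and 8 cells of wt/wt replicates 1 to 3 and in 1, 27 and 12 cells of ko/ko replicates 1 to 3, which is 36.5%, 23.7% and 25% of the Schwann-like cells in wt/wt and 5.88%, 21.8% and 52.2% in ko/ko.

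Many Schwann-like cells had RNA of proliferation genes, in a share that depended on the threshold. After thinning to 8000 UMIs, 50.6% of 255 cells had 2 or more UMIs of the proliferation genes Mki67 and Top2a together, against 69.1% of Fibroblast proliferating, 27.7% of RPE, 1.17% of Endothelial and 0.720% of Fibroblast cells. The pooled share was 37.8% at 4000 UMIs a cell, 54.5% without thinning and 63.1% with 1 or more UMIs of these genes at 8000 UMIs. These shares are pooled over samples, and 95 of the 255 cells came from ko/ko replicate 2. Proliferating fibroblasts had been set apart under their own name by the authors' clusters, so the fibroblast shares follow from that split. The Schwann-like cells carried the same name whether cycling or not. All 20 genes of a mitotic list had at least 10 CPM, and 4 of them, Mki67, Ccna2, Cenpf and Nusap1, had a higher mean here than in Fibroblast proliferating cells. Mki67 was at 130 ± 44.8 CPM, against 101 CPM there.

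A question within the study, whether loss of Dram2 changes the growth of choroidal cells, was put to these cells by their cycling share. It was 47.6%, 52.9% and 44.8% in wt/wt replicates 1 to 3 (48.5% ± 4.12, SD, n = 3) and 18.8%, 60.0% and 44.4% in ko/ko replicates 1 to 3 (41.1% ± 20.8, SD, n = 3). The difference of -7.40 points was smaller than the ko/ko spread (exact two-sided permutation p 0.7, where 0.1 is the smallest that 3 against 3 allow). The lowest value, of ko/ko replicate 1, was 3 of 16 cells, and without this sample the difference was 3.76 points in the other direction.

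Schwann-like cells were 1.94%, 0.826% and 0.741% of the cells in wt/wt replicates 1 to 3 and 0.794%, 1.87% and 0.591% in ko/ko replicates 1 to 3. In each genotype 1 sample was more than 2-fold above the other 2, and the 95% Wilson intervals of wt/wt replicate 1 (1.54 to 2.42%) and ko/ko replicate 2 (1.57 to 2.22%) did not overlap those of the other samples of their genotype. The means were 1.17% ± 0.667 and 1.08% ± 0.685 (SD, n = 3), a difference of -0.0840 points (exact two-sided permutation p 0.6). Its sign turned without wt/wt replicate 1 (0.300 points), without ko/ko replicate 1 (0.0605) and without ko/ko replicate 3 (0.162).

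**Figure D2:**
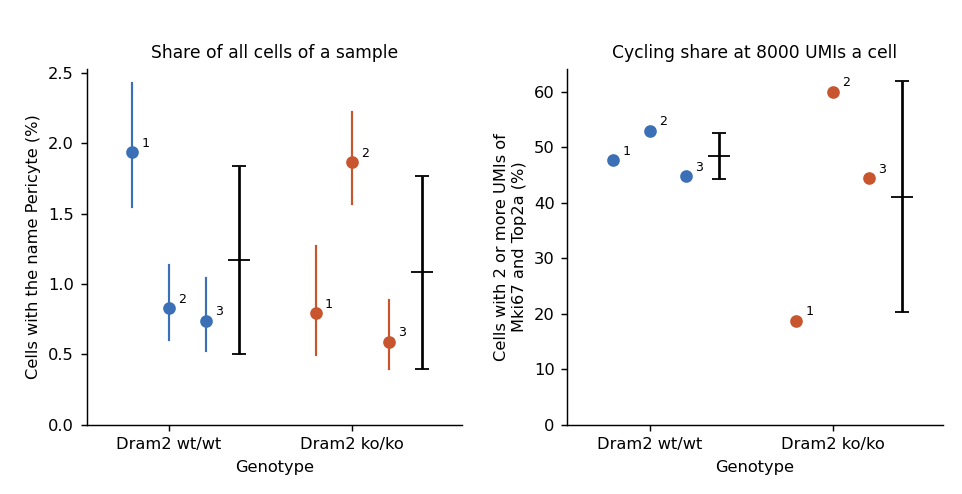
Left, the cells with the name Pericyte as a percentage of all cells of a sample, with 95% Wilson intervals as vertical lines; right, the percentage of these cells with 2 or more UMIs of Mki67 and Top2a at 8000 UMIs a cell. Numbers beside points are replicates, and the black bars are the mean and SD of 3 samples. The genotypes overlap in both panels.

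Between genotypes, the counts summed per sample over these cells were tested gene by gene with voom-limma. Of 8454 genes, the ribosomal protein gene Rps20 alone passed an adjusted p of 0.05 (1 gene, 0.0118%), and 499 (5.9%) had an unadjusted p under 0.05. Rps20 (ENSMUSG00000028234, chromosome 4, 3831334 to 3835665 of GRCm38) had 666, 692 and 708 CPM in wt/wt and 325, 213 and 184 CPM in ko/ko. The groups were far apart, and the gene fell by 1.58 on the log2 scale (SE 0.185, voom-limma adjusted p 0.0276). In Fibroblast cells of the same samples Rps20 was also lower in ko/ko, at 661, 723 and 741 CPM in wt/wt and 357, 228 and 185 CPM in ko/ko. The difference between the falls in the 2 types was -0.11 (log2, voom-limma interaction adjusted p 0.999). Of the 3′ sequence of Rps20, 37.8% also occurs in transcripts of other genes, so that part of its reads may not be assignable to 1 gene. The reads themselves were not examined. The call was lost, at an unchanged direction, without wt/wt replicate 1 (voom-limma adjusted p 0.123), wt/wt replicate 2 (0.230), wt/wt replicate 3 (0.399), ko/ko replicate 2 (0.157) or ko/ko replicate 3 (0.0658). It was also lost with edgeR (adjusted p 0.0503), and in voom-limma with batch as a covariate (0.1005) or replicate number as a term (0.152). The log2 fold change stayed between -1.79 and -1.45 over all 16 alternatives.

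DESeq2 called 15 of the 8454 genes (0.177%), all lower in ko/ko. They included the ribosomal protein genes Rps20, Rpl30, Rpl41 and Rpl22l1, the cytochrome oxidase gene Cox7c, Serf2 and the pseudogenes Gm9794, Gm7808 and Rps19-ps6. Of these, 5 were also the lower genes that followed Rps20 in voom-limma without a call. Gm9794, a processed pseudogene, had 492, 594 and 686 CPM in wt/wt and 334, 213 and 235 CPM in ko/ko (voom-limma adjusted p 0.120), and Rpl30 had 115, 123 and 132 CPM in wt/wt and 74.9, 35.6 and 43.3 CPM in ko/ko (adjusted p 0.120). Serf2 had 149, 181 and 194 CPM in wt/wt and 77.2, 71.8 and 94.9 CPM in ko/ko (adjusted p 0.120), with 65.1% of its 3′ sequence shared, and the shared parts of Gm9794 and Rpl30 were 91.6% and 38.6%. The remaining 2, Rps19-ps6 and Gm7808, shared 99.5% and 100% of theirs. In Fibroblast cells of the same samples these 5 genes were lower in ko/ko as well. Their wt/wt and ko/ko means there were 600 and 266 CPM for Gm9794, 123 and 43.4 for Rpl30, and 173 and 93.2 for Serf2. For Rps19-ps6 they were 44.3 and 11.7 CPM, and for Gm7808 100 and 25.5 CPM. A list of 77 cytosolic ribosomal protein genes, put together after the value of Rps20 was seen, had 1 gene called, 24 lower and 1 higher at an unadjusted p under 0.05 (4.12% and 1.79% of all genes tested), and a median log2 fold change of -0.35, where the median of all 8454 genes was -0.0032. Summed, these genes took 28429 ± 921 CPM in wt/wt and 26489 ± 2087 CPM in ko/ko (SD, n = 3), and ko/ko replicate 1, at 28833 CPM, lay within the wt/wt range. The higher gene was Rps2.

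Of the genes that were higher in ko/ko, none was called. The 1 with the smallest p was Pou3f1 (Oct6 or SCIP), the POU factor that marks promyelinating Schwann cells and works upstream of Egr2. It had 22.7, 16.7 and 26.1 CPM in wt/wt and 70.4, 58.6 and 49.5 CPM in ko/ko, a log2 fold change of 1.43 (SE 0.247, voom-limma adjusted p 0.120). The 3 ko/ko values were all above the 3 wt/wt values, as they were for 5.04% of all genes tested, and all were below for 5.68%. Outside the Schwann-like cells Pou3f1 was at most 0.291 CPM in any type. Leaving out single samples gave log2 fold changes of 1.29 to 1.53 and adjusted p of 0.0652 to 0.596. Of the other genes without overlap, Tnnt2, cardiac troponin T, had 16.7 ± 2.81 CPM in wt/wt and 38.2 ± 6.42 CPM in ko/ko (adjusted p 0.266), and the AP-1 gene Junb 209 ± 16.3 and 306 ± 23.5 CPM (adjusted p 0.422). Rps2 and Gm47283, with 60.7% and 51.6% of their 3′ sequence shared, and Procr, the endothelial protein C receptor gene, completed the 6.

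Dram2 itself was at 19.1, 25.1 and 21.8 CPM in wt/wt and 15.9, 21.7 and 22.7 CPM in ko/ko, with a log2 fold change of -0.05 (SE 0.278, voom-limma adjusted p 0.985). The reads come from the 3′ end and not from the deleted exon 4, so this level does not check the genotype. It was below the 39.1 ± 3.87 CPM of the wt/wt Fibroblast cells.

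With all samples, no Schwann gene was called between genotypes. Without ko/ko replicate 1, Gldn was called, with a log2 fold change of -1.33 (SE 0.208, voom-limma adjusted p 0.0227), while with all samples it had -0.49 (SE 0.557, adjusted p 0.941). With all samples the group means ran the other way, at 214 ± 19.5 CPM in wt/wt and 271 ± 310 CPM in ko/ko (SD, n = 3), and the log2 fold change of Gldn was positive with edgeR (0.27), with DESeq2 (0.35) and without ko/ko replicate 2 (0.32). Sox10 had a log2 fold change of -0.32 (SE 0.203, voom-limma adjusted p 0.869), Ngfr -0.15 (SE 0.204, adjusted p 0.949), Gfra3 -0.52 (SE 0.845, adjusted p 0.954) and Cdh19 -0.82 (SE 0.262, adjusted p 0.620). Cdh19 was the only 1 of these 4 whose ko/ko values all lay below the wt/wt values. The fitted sign for Gfra3 went against the group means, which were 68.6 ± 39.1 CPM in wt/wt and 81.5 ± 81.5 CPM in ko/ko (SD, n = 3), and was positive with edgeR (0.20) and DESeq2 (0.26). It also turned without ko/ko replicate 1 (0.59), and the sign for Ngfr turned without ko/ko replicate 2 (0.13). Of the Schwann identity list 15 of 16 genes were tested. At an unadjusted p under 0.05, where 4.12% of all genes tested were lower and 1.79% higher, Cdh19, Fabp7 and Ednrb were lower and none was higher, and the list's median log2 fold change was -0.32. Of the 17 tested genes on the precursor and immature list 4 were lower and 1, Pou3f1, was higher at that level. The fourth lower gene, Id2, a dominant inhibitor of helix-loop-helix factors, had 125, 187 and 136 CPM in wt/wt and 45.4, 51.4 and 99.1 CPM in ko/ko (voom-limma adjusted p 0.189). Of the repair list 15 genes were tested, with none at that level and a median of -0.32, and of the 8 tested myelin genes Pou3f1 alone reached it, with a median of -0.0062. None of the 17 glial laminin, integrin and basement membrane genes tested reached it, and none of the 20 mitotic genes did. Of the 6 fibroblast genes tested, Col3a1, Col1a1 and Postn were lower at an unadjusted p under 0.05. Col1a1 was the only 1 of these without overlap, with 1996, 1882 and 1880 CPM in wt/wt and 1712, 1285 and 1622 CPM in ko/ko (voom-limma adjusted p 0.811).

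**Figure D3:**
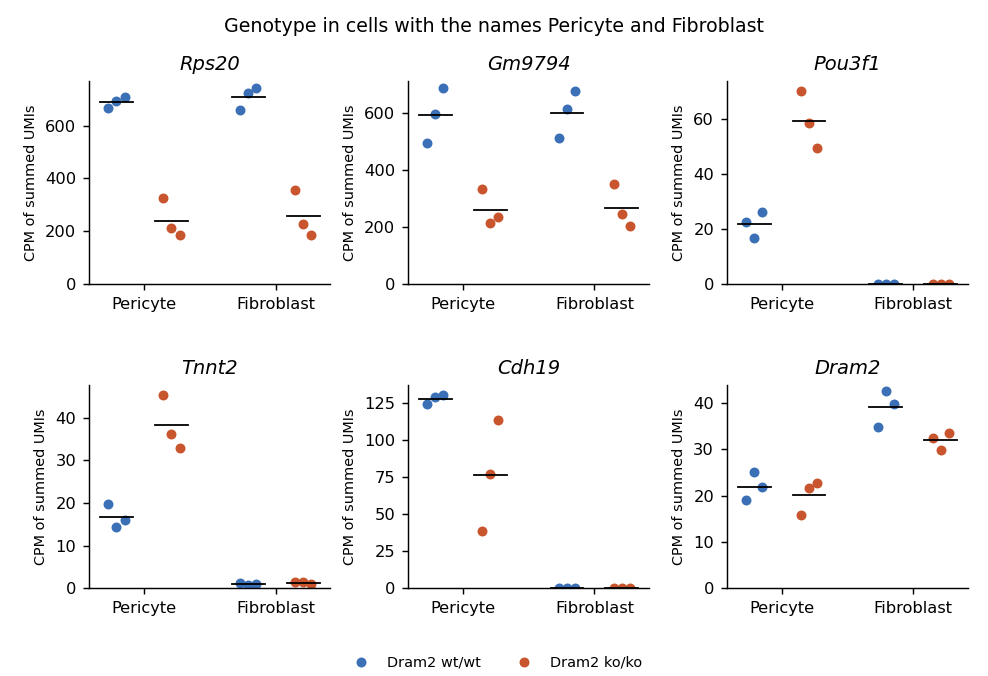
CPM of 6 genes in the cells with the names Pericyte and Fibroblast, 1 point per sample, with the mean of 3 samples as a line; all axes start at 0. Rps20 and Gm9794 are lower in ko/ko in both types, and Pou3f1, Tnnt2 and Cdh19 lie near 0 in Fibroblast cells. Dram2 overlaps between genotypes in the cells with the name Pericyte but not in Fibroblast cells. Its genotype effect was not called different between the types (log2 interaction 0.153, voom-limma adjusted p 0.999).

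Whether genotype acted differently in these cells and in Fibroblast cells was tested with an interaction term over 18297 genes, with the sample as a factor. Voom-limma called 0 genes (0%), with 825 at an unadjusted p under 0.05. The edgeR test called 38, Postn, Id2 and Spp1 among them, with 740 at an unadjusted p under 0.05. For Pou3f1 the interaction was 1.08 on the log2 scale (voom-limma adjusted p 0.999), where Fibroblast cells had 0.0998 ± 0.022 CPM in wt/wt and 0.123 ± 0.0057 CPM in ko/ko.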

How the data were processed

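Single-cell RNA of cultured RPE and choroid cells was sequenced with the 10x Genomics 3′ protocol in 3 Dram2 wt/wt and 3 Dram2 ko/ko samples. The authors deposited raw UMI counts of 52636 genes in 25428 cells, made with Cell Ranger 3.1.0 against GRCm38 per the labels, exons only, and a table of labels per cell. Cell type names were given by the authors to Louvain clusters of log-normalised values integrated by batch in Seurat. The annotation release and cell filters are not given in the sources used here. The labels do not say whether samples were single animals or pools, so p-values measure the spread between samples only. Cells are numbered without barcodes, so barcodes shared between libraries could not be counted, and no doublet caller was run.

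Counts were summed per sample over the cells named Pericyte (Python 3.11.15), filtered with filterByExpr, scaled with TMM (edgeR 4.0.16) and tested with voom-limma (limma 3.58.1, R 4.3.3), Benjamini-Hochberg adjusted over all genes tested. Shares were compared by exact permutation tests. Intervals are 95% Wilson intervals and cover counting error only. Symbols came from a supplied table of gene names for 52403 of 52636 identifiers, and positions and transcripts from GENCODE M21. Shared 3′ sequence is the percentage of 31-base words in the last 400 bases of a gene's transcripts that other genes' transcripts hold on either strand.

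The cells, the 22 gene lists and the tests were chosen with earlier results of these data known. Named genes were Dram2 and the 4 markers given for these cells, the list members, the 25 genes with the largest ratio to the next type, called genes, and the 6 higher and 6 lower genes of smallest p without overlap between genotypes and with a mean of at least 20 CPM. The procedure was tested on simulated data. Alternatives were edgeR, DESeq2 1.42.0, other scalings and filters, batch or replicate number as a term, other sets of cells, and leaving out each sample. Some genes are not reported here.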

Additional observations from a re-analysis of the deposited data

How the results depend on the processing

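Precision was limited by 17 to 124 cells per sample and 3 samples per genotype. The count of called genes was 1 with other scalings, without the filter on low counts, without pseudogenes and with other sets of cells. It was 0 with edgeR (430 at an unadjusted p under 0.05), 15 with DESeq2, 0 with batch as a covariate, which amounts to leaving out the only sample of batch 2, and 0 to 21 when single samples were left out, with 21 without ko/ko replicate 1. Same-numbered samples had correlations of their deviations of 0.0467, 0.0386 and -0.0132, and differently numbered ones ran from -0.113 to 0.0974. These values showed no pairing by replicate number, but with 3 samples per genotype they cannot exclude it. With the replicate block 0 genes were called (voom-limma adjusted p 0.152 for Rps20). The interaction count was 38 with edgeR and 0 under the other alternatives. Signs turned for Dram2 (0.0777 on the log2 scale without the 5% of cells with the most UMIs, and -0.202 to 0.0736 when single samples were left out), Ngfr (-0.38 to 0.13 when single samples were left out), Gfra3 (0.20 with edgeR, 0.26 with DESeq2, 0.55 with the replicate block, and -1.33 to 0.59 when single samples were left out) and Gldn (0.27 with edgeR, 0.35 with DESeq2, and -1.33 to 0.32 when single samples were left out). The share difference ran from -0.475 to 0.300 points and the cycling difference from -16.9 to 3.76 points when single samples were left out. The cause of these changes was not tested. Of 318 alternative values, 279 kept direction and side of the threshold, or for counts of called genes stayed near the main count. Many of these values belong to genes without a call in the main fit. The count of genes called between genotypes moved in 10 alternatives and stayed in 7, and Rps20 lost its call in 8.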
